A study of Mus musculus with 39 samples.

Results

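The genes described here carry Zfp names, the mouse symbols for zinc finger proteins, and were detected in untreated 2-cell embryos. A probe was a member when its gene name on the array was Zfp followed by digits and its signal was flagged well above background on all 3 arrays of the 2-cell control; Zfp42 and Zfp352 were left out. The rule chose 358 probes of 259 genes, out of 335 such genes on the array, and the array named 22329 genes in all. RefSeq lists 10 members under another symbol or, for Zfp264, under none; examples are Zfp259 (now Zpr1) and Zfp191 (now Zfp24), and they keep the array's name here. Because the rule used the 2-cell control arrays, comparisons with those arrays are given as descriptions without a test.

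Embryos of the cross labelled B6D2F1 x ICR were made by fertilising MII oocytes of B6D2F1 females in vitro with sperm of ICR males. They were cultured from 4 h after insemination for 6 h with 10 µM T247 or with 10 µM MGCD0103, or were left untreated as the control; the treated zygotes were then kept like the untreated ones. Collection at 12, 24 and 48 h post-insemination gave 1-cell, 2-cell and 4-cell embryos. T247 is an inhibitor selective for HDAC3, and MGCD0103 (mocetinostat) is a benzamide inhibitor of class I histone deacetylases. Untreated GV oocytes, MII oocytes, 8-cell embryos, morulae and blastocysts made up the other 5 conditions, and there was no 4-cell condition with MGCD0103 among the 13 conditions. Each condition had 3 arrays, and each array held Cy3-labelled RNA of 100 oocytes or embryos. All values below are log2 signals after smooth quantile normalization over the 39 arrays. They are relative to the RNA on the array, so that less total RNA per embryo and less RNA of a single gene cannot be told apart.

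Most Zfp proteins are C2H2 zinc finger proteins, which read DNA through a row of fingers, and many carry a KRAB domain that recruits TRIM28. TRIM28 brings the H3K9 methyltransferase SETDB1, HP1 proteins and the NuRD complex, whose catalytic subunits HDAC1 and HDAC2 are deacetylases, and the complex silences retrotransposons and protects imprints in the early embryo. Other Zfp names belong to general transcription factors and to proteins that bind RNA or ribosomes. Many of the KRAB members lie in tandem clusters of related copies, and maternal transcripts of some are lost while others are first made by the embryo when its genome is activated.

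The start regions of 5 members around which the results turn are shown first, as windows of 300 bases from the RefSeq table of build GRCm38.p6. Each begins 250 bases before the annotated start of transcription and is read on the strand of the gene, with every CG dinucleotide, the substrate of DNA methylation, in capitals. Zfp622 had the largest rise from the 1-cell to the 4-cell stage, Zfp57 is the imprint protector that fell most, and the other 3 changed with both inhibitors at the 1-cell stage.
Zfp622, chr15:25984116-25984415, plus strand, 17 CG: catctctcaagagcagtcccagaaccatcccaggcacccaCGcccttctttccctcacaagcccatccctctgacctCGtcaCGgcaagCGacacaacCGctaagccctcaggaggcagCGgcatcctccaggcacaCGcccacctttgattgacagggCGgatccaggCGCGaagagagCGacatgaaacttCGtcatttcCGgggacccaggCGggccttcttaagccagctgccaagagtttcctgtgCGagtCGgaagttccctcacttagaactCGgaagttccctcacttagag
Zfp57, chr17:37003416-37003715, plus strand, 4 CG, 1 of 3 annotated starts: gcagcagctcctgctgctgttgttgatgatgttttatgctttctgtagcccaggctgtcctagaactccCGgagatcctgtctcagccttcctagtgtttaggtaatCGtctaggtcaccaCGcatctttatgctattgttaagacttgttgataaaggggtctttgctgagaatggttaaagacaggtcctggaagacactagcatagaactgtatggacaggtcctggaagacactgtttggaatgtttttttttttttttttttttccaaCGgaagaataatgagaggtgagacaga
Zfp30, chr7:29783718-29784017, plus strand, 9 CG: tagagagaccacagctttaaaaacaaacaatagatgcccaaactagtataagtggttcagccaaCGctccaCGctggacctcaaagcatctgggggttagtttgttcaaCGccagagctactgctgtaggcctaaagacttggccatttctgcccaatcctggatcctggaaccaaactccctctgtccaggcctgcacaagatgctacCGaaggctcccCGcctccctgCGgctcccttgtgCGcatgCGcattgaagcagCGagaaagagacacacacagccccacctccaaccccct
Zfp715, chr7:43313251-43313550, minus strand, 13 CG: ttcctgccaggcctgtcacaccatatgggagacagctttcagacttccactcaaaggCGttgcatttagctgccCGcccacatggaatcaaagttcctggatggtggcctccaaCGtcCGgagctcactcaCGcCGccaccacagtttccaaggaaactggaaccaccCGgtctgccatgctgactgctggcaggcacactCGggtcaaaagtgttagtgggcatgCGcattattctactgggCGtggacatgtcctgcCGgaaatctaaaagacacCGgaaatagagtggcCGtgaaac
Zfp933, chr4:147848369-147848668, minus strand, 9 CG: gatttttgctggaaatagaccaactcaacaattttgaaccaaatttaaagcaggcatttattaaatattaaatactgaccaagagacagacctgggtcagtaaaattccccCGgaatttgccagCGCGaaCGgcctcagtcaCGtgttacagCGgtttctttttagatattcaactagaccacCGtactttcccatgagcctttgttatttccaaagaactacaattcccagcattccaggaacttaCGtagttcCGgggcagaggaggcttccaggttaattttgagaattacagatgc
Windows were found for 216 of the 259 members, 275 windows in all, with a median of 16.0 CG against 7.0 over the 32851 windows of the table. The table also holds genes that were not detected here. Windows of the other detected genes were not compared, so detection and family cannot be told apart in this contrast. The 20 windows of the 17 members that were higher with T247 at the 1-cell stage had a median of 9.5, and the 14 windows of the 11 such members with MGCD0103 had 9.0. The letters CCAAT, searched on both strands, were in 44.0% of the members' windows and 37.4% of all windows, and of the 5 windows above only that of Zfp30 held them. TATAAA was in 7.64% of the members' windows and 13.6% of all, and GGATTA in 7.27% and 7.06%. The other windows of Zfp57, not shown, have 6 CG with TATAAA and 9 CG with CCAAT. These are matches of letters, and no binding was measured.

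Before the comparisons, the libraries were compared with each other. Over the 13537 genes that passed the detection rule used for the members, arrays of a condition correlated at 0.987 to 0.997, with the exception of the 2-cell control, where the range was 0.912 to 0.995 because its replicate 1 stood apart. Counts and differences against the 2-cell control are therefore given with and without that replicate. Between 43.7 and 57.4% of the probes on an array were well above background. The 7 oocyte markers (Gdf9, Bmp15, Zp1, Zp2, Zp3, Nlrp5 and Mos) were detected on all 3 arrays from the GV stage through every 2-cell condition. Of 6 markers of the 2-cell embryo, such as the Zscan4 and Tcstv genes, 5 were on the array, and all 5 were detected in the 3 conditions of that stage. Of 8 cumulus cell markers, 5 were detected in GV oocytes and 1 to 3 in the other conditions, and of 5 sperm markers 1 to 4 were detected. Control arrays lay on slides 1 to 3, T247 arrays on slides 4 and 5, and MGCD0103 arrays on slide 6, so treatment and slide cannot be told apart.

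The dimmest members were Zfp808, with 4.74, 3.94 and 4.52 on the 3 control arrays of the 2-cell stage, Zfp169 with 4.91, 4.25 and 4.64, and Zfp185 with 5.63, 4.39 and 4.25. Just outside lay Zfp87 with 3.80, 7.48 and 7.05, Zfp853 with 3.96, 6.06 and 6.35, and Zfp292 with 3.45, 6.54 and 6.32. These 3 missed the rule on replicate 1 alone. Of the 76 Zfp genes outside the rule, 20 were well above background on 2 of the arrays, 11 on 1 and 45 on none. The members with the strongest signals were Zfp628 at 17.01, 17.20 and 17.31, Zfp408 at 16.80, 16.85 and 17.01 and Zfp622 at 15.35, 16.01 and 16.07, although signals of different probes do not rank transcripts.

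Detection of the members outside the rule's arrays varied with stage. All 3 arrays detected 243 members in GV oocytes, 225 in MII oocytes, 229 in 1-cell, 221 in 4-cell and in 8-cell embryos, 235 in morulae and 244 in blastocysts. With the inhibitors, 255 members were detected on all arrays of T247 2-cell embryos and 249 of MGCD0103 2-cell embryos. The numbers were 237 with T247 and 235 with MGCD0103 at the 1-cell stage, and 232 with T247 at the 4-cell stage. As the rule required detection in the 2-cell control, numbers below 259 elsewhere follow in part from it. The shares of all genes are not given, so these numbers describe no trait of the family.

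**Figure D1:**
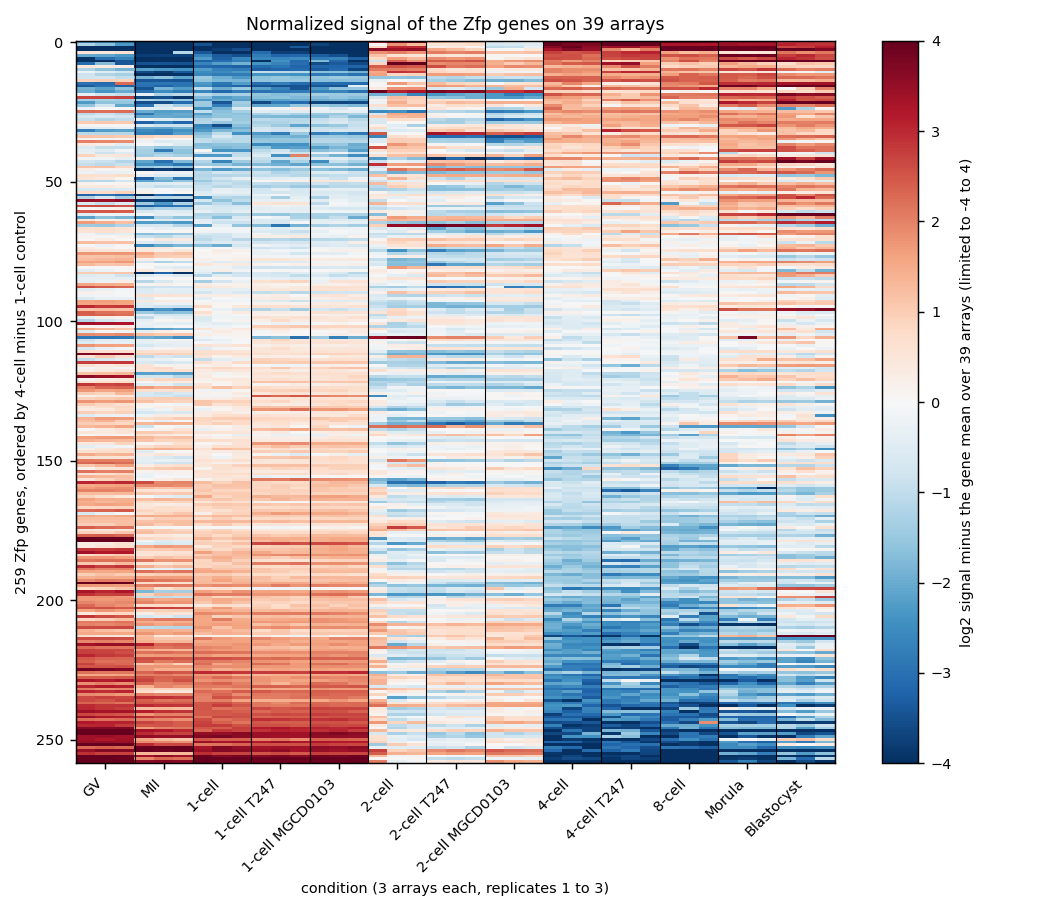
Each row is one of the 259 Zfp genes, ordered by its log2 difference between 4-cell and 1-cell control embryos, and each column is an array, grouped by condition. Colour gives the log2 signal minus the gene's mean over the 39 arrays, so that the 68 genes that rose at the top turn from blue to red and the 129 that fell at the bottom turn from red to blue between the 1-cell and 4-cell columns.

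The first comparison asked how the members changed over genome activation, from 1-cell to 4-cell control embryos, neither of which the rule used. A gene was called when its log2 difference was at least 1 in size and its p, adjusted over the 13537 genes by Benjamini-Hochberg in limma, was below 0.05. Of the 259 members 68 rose and 129 fell. Over all genes tested, 27.8% rose and 48.1% fell, close to the 26.3% and 49.8% of the members. The median difference was -0.97 for the members and -0.87 for all genes. Scaling each array to its 75th percentile moved the median of all genes to -0.15 and gave 83 members higher and 104 lower, and plain quantile normalization moved it to -0.44 and gave 77 and 110. Counts under other settings, here and below, are of members only. Without the share of all genes beside them they do not set the members apart from other genes. On each of the 3 slides taken alone, 196 of the 197 members called had the same direction, and 181 differed by at least 1 on every slide. The members were called on these same arrays, so this describes their spread and adds no separate support.

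Zfp622, whose protein takes part in the maturation of the large ribosomal subunit, had the largest rise. Its signal was 6.77, 6.70 and 6.70 on the 1-cell control arrays, 15.35, 16.01 and 16.07 at the 2-cell stage, and 16.89, 16.79 and 16.92 at the 4-cell stage. The levels at the 1-cell and 4-cell stages lay far apart, with a log2 difference of 10.14 (SE 0.16, adjusted p = 1.89e-29). Zfp668 stood at 4.36, 3.45 and 3.19 in 1-cell embryos, not well above background, and at 11.89, 11.62 and 11.59 in 4-cell embryos, at least 164-fold higher. Zfp239 went from 2.10, 2.10 and 2.06, likewise below detection, to 9.88, 10.24 and 9.77, at least 49.2-fold higher. Both already read higher in the 2-cell control, where Zfp239 read 7.03, 9.21 and 9.18.

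Zfp750, an activator of epidermal differentiation genes in skin, fell most over these stages, from 13.59, 13.31 and 13.36 to 4.64, 4.67 and 5.13, a log2 difference of -8.61 (SE 0.44, adjusted p = 1.58e-17). Zfp57, the KRAB zinc finger protein that keeps DNA methylation at imprinted regions, read 15.63, 15.59 and 15.45 in 1-cell embryos, 11.28, 11.17 and 11.24 in 2-cell embryos, and 7.39, 7.67 and 7.57 in 4-cell embryos. Its 3 stages did not overlap, and it fell by 8.02 on the log2 scale between the first and the last. Zfp108 went from 13.95, 13.73 and 13.82 to 5.99, 6.33 and 5.96, a log2 difference of -7.74.

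**Figure D2:**
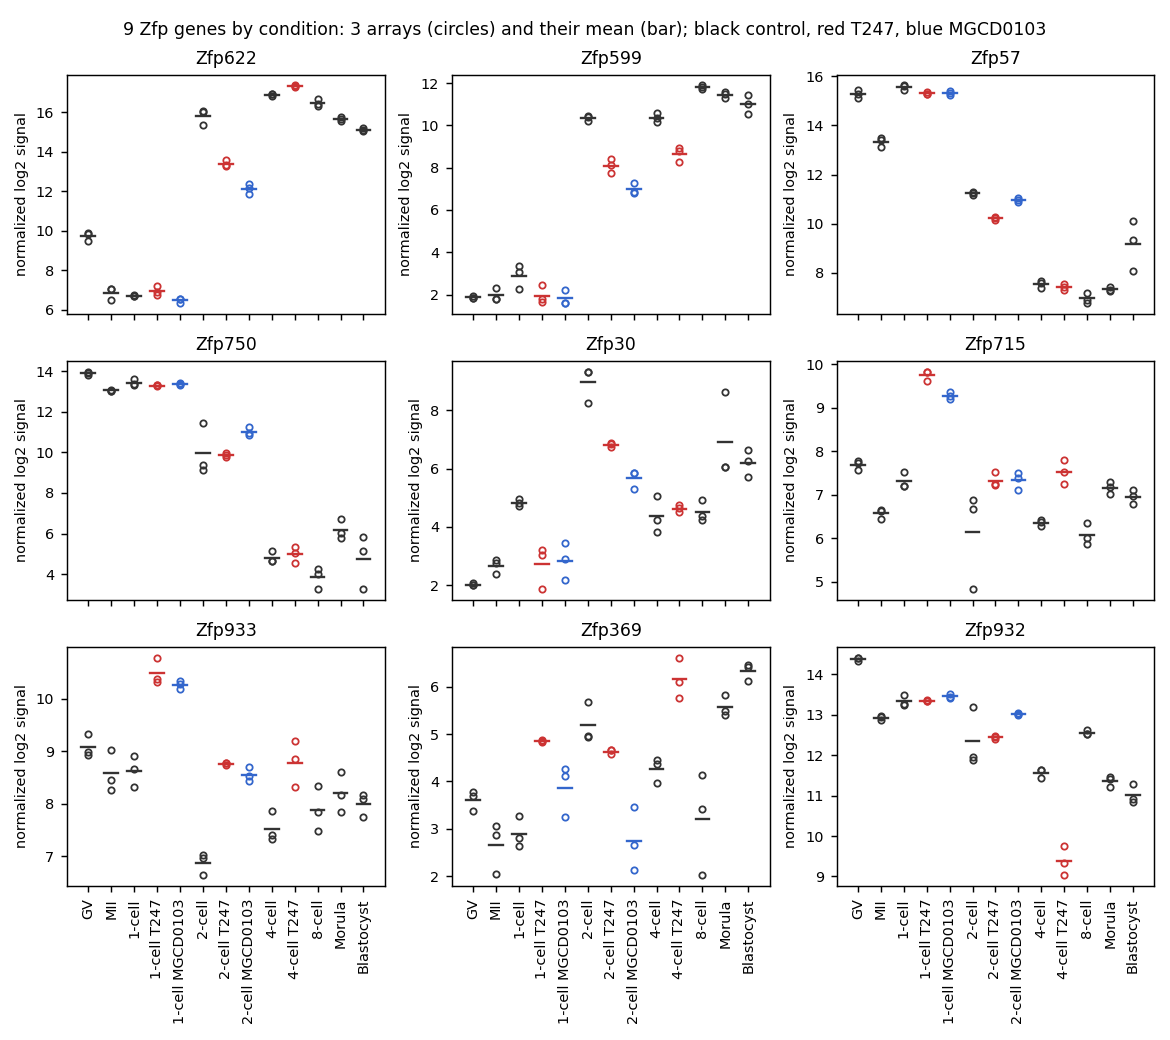
Normalized log2 signal of 9 Zfp genes in the 13 conditions, with 3 arrays as circles and their mean as a bar; black is control, red T247 and blue MGCD0103. Zfp622 and Zfp599 rise at the 2-cell stage and lie lower with either inhibitor, Zfp57 and Zfp750 fall over the same stages, and Zfp715 and Zfp933 lie above the 1-cell control on all 6 treated 1-cell arrays.

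The earlier and later steps of development were compared in the same fit, and most of their splits depended on the scaling. From GV to MII oocytes, 5 members rose and 106 fell, against 0.451% and 49.3% of all genes. With each array scaled to its 75th percentile the split turned to 93 higher and 44 lower, and with plain quantile normalization to 83 and 43. The median of all genes moved from -0.98 to 0.31 and 0.19, and that of the members from -0.72 to 0.58 and 0.51. The direction of the whole family over this step is therefore set by the scaling, whereas its median lay above that of all genes under each of these scalings. The largest falls were those of Zfp583, at least 79.5-fold lower in MII oocytes, of Zfp777 with -6.37 and of Zfp414 with -5.71. Zfp58 differed by 1.76, Zfp595 by 1.16 and Zfp62 by 1.13 in the other direction, but the mean of the passing probes of Zfp58 gave -0.43.

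From MII oocytes to 1-cell embryos 43 members rose and 10 fell, against 18.2% and 5.36% of all genes, with 30 and 29 after scaling to the 75th percentile and 30 and 21 after quantile normalization. Zfp963 rose by 3.19 and Zfp488 by 3.03, each with 1 MII array below detection, and Zfp264, at background in MII oocytes, was at least 1.88-fold higher. Zfp710 fell by 1.87, Zfp523 fell by 1.43, and Zfp454 was at least 1.40-fold lower.

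From the 4-cell to the 8-cell stage only 10 members rose and 12 fell, against 7.08% and 8.35% of all genes, and the other scalings gave 8 and 16 or 8 and 15. Zfp677 fell by 1.57, and Zfp326 rose by 1.55 although 1 of its 4-cell arrays was below detection. Zfp735, Zfp560, Zfp185 and Zfp192 had calls that rest on arrays below detection, with means of 4.63 and 2.42, 3.42 and 1.96, 2.00 and 4.18, and 3.47 and 4.97 at the 4-cell and 8-cell stages.

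From the 8-cell stage to the morula 62 members rose and 7 fell, against 30.7% and 7.27% of all genes, and the split became 26 and 26 or 27 and 23 under the other scalings. Zfp764 rose by 2.91, Zfp709 was at least 2.51-fold higher and Zfp667 at least 3.04-fold higher. Zfp932 fell by 1.20 and Zfp775 fell by 1.61, and the mean of Zfp608 was 2.31 in the morula, where no array detected it. From morula to blastocyst 44 rose and 15 fell, against 18.9% and 8.2% of all genes, with 19 and 33 or 21 and 21 under the other scalings. Zfp608 was at least 7.12-fold higher in blastocysts, Zfp946 rose by 3.43 and Zfp185 by 3.20. Zfp706 fell by 1.76 and Zfp239 fell by 1.92. Zfp865 differed by -1.60, but by 0.28 when its passing probes were averaged.

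The highest control stage of a member was most often the GV oocyte, with 115 of 259 members or 44.4%, against 40.8% of all genes. The 2-cell embryo was highest for 18 members, 6.95% against 7.38% of all genes, and the blastocyst for 41, 15.8% against 18.3%. After scaling to the 75th percentile 30 members were highest in GV and 81 in MII oocytes, so this order also followed the scaling.

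The members were next ordered by what their proteins do, using 3 lists of Zfp genes with known roles. Their counts from the 1-cell to the 4-cell stage are to be read against the 27.8% of all genes that rose and the 48.1% that fell. All 7 genes of the list of imprint protectors and transposon repressors were members. Of these 2 rose and 3 fell. Zfp809, which silences retroviruses through their primer binding site, rose by 2.05 (SE 0.21), and Zfp568, a repressor of a placental Igf2 transcript, rose by 1.69 (SE 0.16). Besides Zfp57, Zfp708 fell by 4.37 and Zfp932 fell by 1.77; both proteins repress families of endogenous retroviral elements. Zfp445, the other imprint protector, read 10.05, 10.03 and 10.00 in 1-cell and 9.87, 10.01 and 10.13 in 4-cell embryos, which overlap, and Zfp819 differed by 0.33 without a call.

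Of 18 general transcription and chromatin genes on the second list 14 were members, and 8 rose and 5 fell from the 1-cell to the 4-cell stage. Zfp217, a partner of the CoREST and LSD1 repressor complex, rose by 4.28, Zfp143, an activator of housekeeping and snRNA genes, by 2.48, and Zfp281, a pluripotency regulator, by 2.44. Zfp335, a component of H3K4 methyltransferase complexes, rose by 1.94 and Zfp410, an activator of Chd4, by 1.04. Zfp423, a partner of early B-cell factors, fell by 5.21, and Zfp703, a corepressor, fell by 2.24. Of 11 genes on the list of RNA, ribosome, ubiquitin and spindle proteins 9 were members, with 4 higher and 2 lower. Beside Zfp622 these were Zfp593, a ribosome biogenesis factor that rose by 3.19, Zfp346, which binds double-stranded RNA and rose by 2.46, and Zfp36 (tristetraprolin), which destabilises AU-rich mRNAs and rose by 3.26. Zfp91, a ubiquitin ligase, fell by 2.78, with 1 of its 4-cell arrays detected, and Zfp326 fell by 2.91.

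The corepressors with which KRAB zinc finger proteins work were followed through 22 genes that were all measured. From the 1-cell to the 4-cell stage 4 of them rose and 14 fell, against 27.8% and 48.1% of all genes. Hdac1 rose by 6.97, Mta2 of the NuRD complex by 6.06, the HP1 gene Cbx3 by 4.93 and Trim28 by 1.32. Uhrf1, which guides DNA methylation after replication, fell by 5.72, Dnmt1 fell by 3.62 and Setdb1 fell by 2.23. At the 1-cell stage none of the 22 was called with T247 or MGCD0103. Below the fold threshold, Trim28 differed by -0.76 with T247 and -0.56 with MGCD0103, and Setdb1 by 0.71 and 0.79.

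Genes of tandem arrays were compared by position. The probe coordinates of the array, on mouse build mm9, placed 71 members on chromosome 7 and 29 on chromosome 17. Members no more than 1 Mb apart formed 12 groups of at least 5, which held 101 members. In the group of 11 on chr7:24892175-26011877, from Zfp180 to Zfp526, 8 fell and 1 rose between the 1-cell and 4-cell control, with a median of -4.17, where 48.1% of all genes fell. Zfp108 is in this group, and so is Zfp180, which rose by 4.27. In T247 embryos 10 of the 11 fell from the 1-cell to the 2-cell stage, and in MGCD0103 embryos 10 fell as well, where 43.7% and 36% of all genes fell. Of all genes that fell from the 1-cell to the 4-cell control, 62.7% and 47.7% fell over this step. As 8 of the 11 are such genes, these shares are the nearer ones to set beside the group.

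The 6 members on chr15:75455531-76741081, from Zfp41 to Zfp647, had the opposite median of 2.83, with 5 higher and 1 lower. Zfp707 rose by 4.29, Zfp7 by 3.39 and Zfp251 by 2.26, Zfp647 was at least 10.9-fold higher, and Zfp41 fell by 3.48. The 16 members on chr17:21165104-23693921, a dense KRAB cluster from Zfp160 to Zfp213, split into 5 higher and 7 lower with a median of -0.68. Neighbours in a group are copies of related genes and are not independent of each other, so that these counts describe the groups and were not tested.

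**Figure D3:**
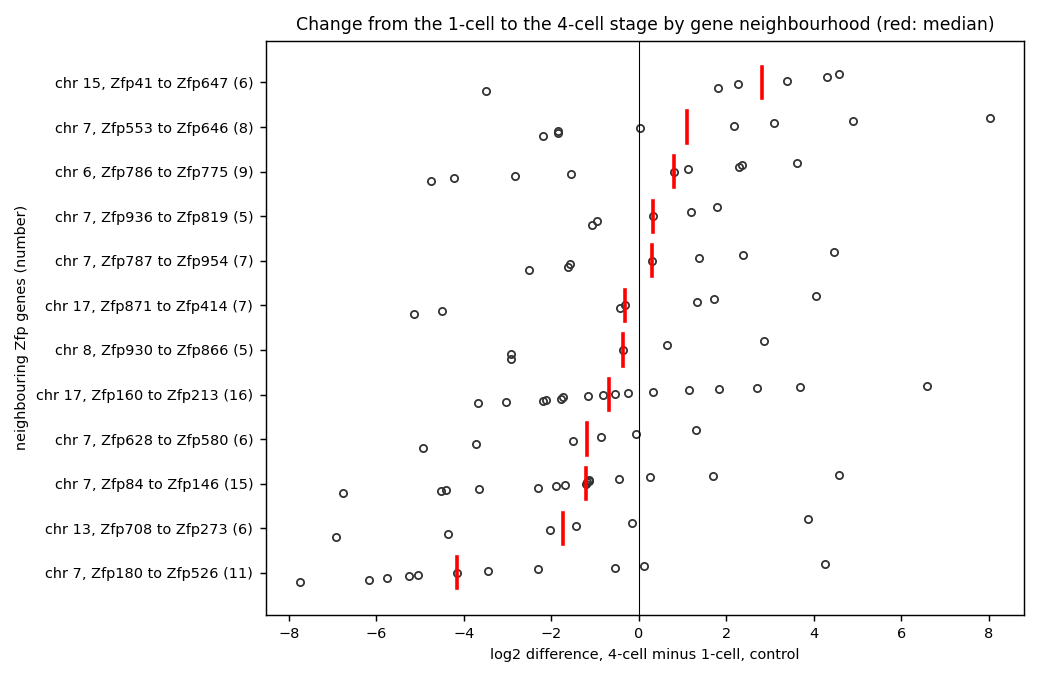
Each row is a group of at least 5 neighbouring Zfp genes, and each circle is a gene placed by its log2 difference between 4-cell and 1-cell control embryos; red bars are medians. The group on chromosome 7 from Zfp180 to Zfp526 has its median at -4.17, and the group on chromosome 15 from Zfp41 to Zfp647 at 2.83.

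The treated embryos were first compared with the control at the 1-cell stage. With T247, 21 members were higher and 2 lower, that is 8.11% and 0.772% of them, against 4.42% and 0.576% of all genes. With MGCD0103, 12 were higher and 3 lower, against 2.85% and 0.451%. Scaling to the 75th percentile gave 16 and 3 with T247 and 9 and 3 with MGCD0103, and quantile normalization gave 19 and 3 and 8 and 3. Correction of the background by normexp gave 11 and 0 with T247 and 7 and 0 with MGCD0103. The shares of all genes under these settings are not given, so how the members stand against them there is not shown. The medians were -0.05 and 0.06 for the members and -0.03 and 0.08 for all genes. The 2 comparisons share the 3 control arrays.

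Zfp715 had the largest rise with both inhibitors, from 7.21, 7.21 and 7.52 in the control to 9.84, 9.62 and 9.82 with T247 and 9.37, 9.26 and 9.21 with MGCD0103. No treated array overlapped the control, and the differences were 2.45 and 1.97 (SE 0.28 each, adjusted p = 1.3e-07 and 6.92e-06). Its neighbour Zfp658, on chr7:50830763-50830822 in mm9, read 13.93, 14.34 and 14.45 in the control, 15.38, 15.59 and 15.60 with T247 and 15.88, 15.87 and 15.67 with MGCD0103, differences of 1.29 and 1.57. These were the 2 members called among the 5 of the group from Zfp936 to Zfp819 on chromosome 7, at this stage with either inhibitor and at the 4-cell stage with T247. Of all genes, 4.42% with T247 and 2.85% with MGCD0103 were higher at this stage, and 11.1% at the 4-cell stage with T247. The group is given as the one around Zfp715, and a response of the region was not tested.

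Zfp933 read 8.31, 8.67 and 8.91 in the control, 10.31, 10.37 and 10.78 with T247 and 10.28, 10.34 and 10.19 with MGCD0103, so that the groups did not overlap. The differences were 1.86 and 1.64 (SE 0.23). Zfp791 rose by 1.64 with T247, where 1 of its spots was missing and the fit used 2 arrays, and by 1.56 with MGCD0103. Zfp345 rose by 1.74 and 1.44 on its brightest probe, whereas its second probe differed by 0.00 and 0.32.

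The other members higher with T247 were Zfp36, Zfp386, Zfp786, Zfp941, Zfp935, Zfp934, Zfp707, Zfp72, Zfp53, Zfp607, Zfp930, Zfp937, Zfp454, Zfp467 and Zfp781, and Zfp369. Those with a detected control array had log2 differences between 1.03 and 1.66. Zfp36, Zfp607 and Zfp935 were detected on 1 control array each, and Zfp786 and Zfp454 on none; of the treated arrays of Zfp786, 1 was detected, its groups and those of Zfp454 overlapped, and no size is given for either. Zfp369 stood at 2.80, 3.26 and 2.64 in the control, not well above background, and at 4.84, 4.87 and 4.86 with T247, at least 1.43-fold higher. With MGCD0103 it read 3.25, 4.25 and 4.11. The remaining members higher with MGCD0103 were Zfp454, at background in the control, and Zfp935 with 1.43, Zfp934 with 1.21, Zfp941 with 1.19, Zfp53 with 1.18, Zfp72 with 1.13 and Zfp386 with 1.09.

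Zfp30 was lower with both, at 4.71, 4.81 and 4.96 in the control, 3.04, 3.22 and 1.87 with T247 and 3.43, 2.17 and 2.88 with MGCD0103 (adjusted p = 0.00107 and 0.00292). Its treated arrays were all below detection, as was 1 control array, so only the direction is given. Zfp59, lower with both, and Zfp599, lower with MGCD0103, were below detection on all arrays of both groups. None of the 7 imprint and transposon repressors was called at this stage, where their differences ranged from -0.53 to 0.00 with T247 and from -0.35 to 0.19 with MGCD0103.

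Zinc finger genes can share sequence even between chromosomes, and the probes were compared for this. Each member's probe of 60 bases was aligned without gaps to every other member's probe, and the most alike pair matched at a median of 28.0 positions over the members and 34.0 over the 21 higher with T247. A partner with at least 45 matching bases existed for 16 of 259 members and for 6 of these 21, such as Zfp386 and Zfp72 with 51, Zfp930 and Zfp934 with 47 and Zfp345 and Zfp936 with 46. How far a probe reads its partner's transcript was not tested. Among the 9 called members with a further member probe, 8 had the same direction on another probe with T247 and 3 reached at least 50% of the difference. For MGCD0103 these numbers were 4 and 1 of 5.

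**Figure D4:**
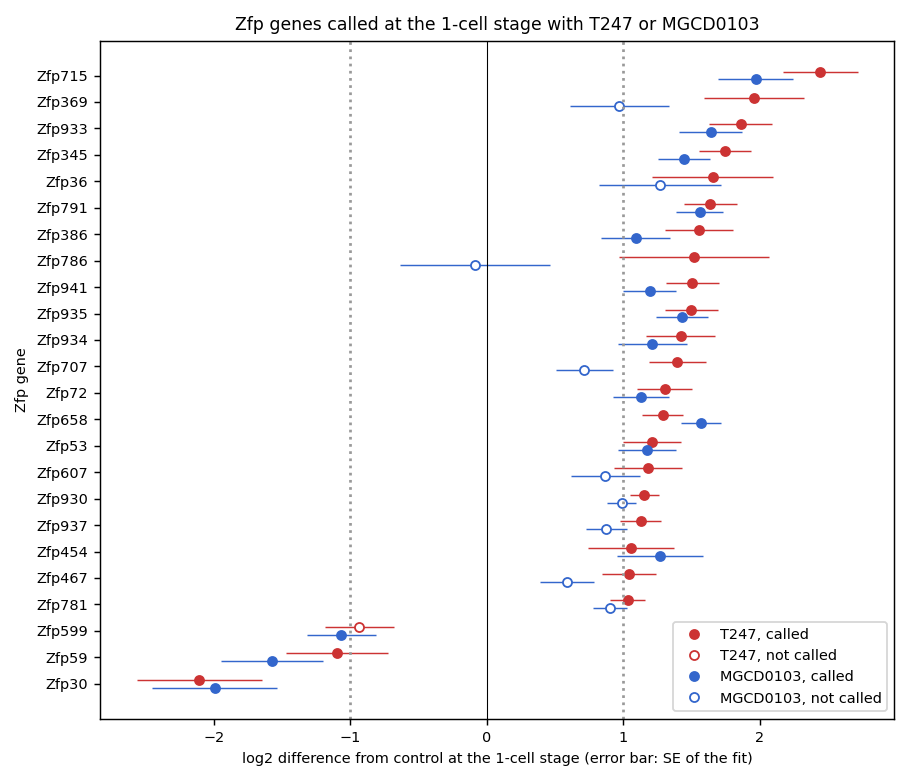
Log2 difference from the 1-cell control with its SE, for each Zfp gene called with T247 or MGCD0103 at the 1-cell stage; filled points are called and open ones are not. Zfp715 lies at 2.45 and 1.97 at the upper end, and Zfp30 lies below 0 with both inhibitors; the points of Zfp30, Zfp59, Zfp369, Zfp454, Zfp599 and Zfp786 rest on a group with no array detected and give no measured size.

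MGCD0103 and T247 were then compared directly, at 10 µM each, at the 1-cell and the 2-cell stage, which made 2 tests of a single pair of compounds, each adjusted over all genes. At the 1-cell stage limma called 0 of 259 members, against 0.0369% of all genes higher and 0.251% lower with MGCD0103, and 26 members had an unadjusted p below 0.05. Array weights in the fit gave 2 calls, and leaving out replicate 2 of T247 gave 1. For 230 members the 95% interval of the difference lay within 1 of 0 on the log2 scale. It ran from -1.04 to 0.09 for Zfp715, from -0.69 to 0.25 for Zfp933, from -0.02 to 0.59 for Zfp658 and from -0.48 to 0.32 for Zfp791. Zfp369 lay at -1.73 to -0.24 without a call, with 1 MGCD0103 array detected.

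At the 2-cell stage 6 members were higher with MGCD0103 than with T247 and 13 lower, against 3.21% and 3.19% of all genes. The other scalings gave 2 and 16 or 6 and 22, normexp gave 4 and 5, and the authors' processed values gave 5 and 7. Without replicate 1 of T247, 12 members in all were called. The medians were 0.23 for the members and 0.27 for all genes. For 155 members the 95% interval lay within 1 of 0.

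Zfp369 had the largest difference and was at least 1.71-fold lower with MGCD0103, at 2.13, 2.67 and 3.47 against 4.57, 4.67 and 4.66 with T247. Zfp1 read 6.72, 7.11 and 7.52 with MGCD0103 and 8.76, 8.54 and 8.69 with T247, a difference of -1.55 (95% interval -1.99 to -1.11). Zfp446 read 7.42, 7.72 and 7.90 against 9.18, 9.03 and 9.13, a difference of -1.43. In each of these the 2 groups did not overlap. Zfp622 differed by -1.25, Zfp593 by -1.42, Zfp36 by -1.34 and Zfp346 by -1.07, so that of the 9 measured RNA, ribosome, ubiquitin and spindle genes 4 were lower and 1, Zfp207, higher with MGCD0103, against 3.19% and 3.21% of all genes. These 4 had all risen from the 1-cell to the 4-cell control, and of all genes that rose so, 10.3% were lower with MGCD0103. The rest of the 13 were Zfp668, Zfp263, Zfp30, Zfp599, Zfp771 and Zfp239, at -1.20 to -1.04.

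Zfp407 was higher with MGCD0103, at 9.02, 8.74 and 8.55 against 7.27, 7.71 and 7.58, a difference of 1.25 (95% interval 0.77 to 1.74). Zfp207, the kinetochore and spindle protein BuGZ, read 11.29, 11.17 and 11.03 against 9.57, 10.31 and 10.25, a difference of 1.12. The others were Zfp428 with 1.18, whose groups overlapped, Zfp750 with 1.13, Zfp108 with 1.09 and Zfp873 with 1.03. Under other settings of the processing, single arrays left out among them, Zfp750 lost its call in 11 of 17. Zfp207 lost it in 4 of 18, with a lowest difference of 0.37, and Zfp407 kept it in all 18. Of the members called with both inhibitors against the 1-cell control, Zfp715 differed by 0.00 between them here (95% interval -0.57 to 0.57) and Zfp933 by -0.20 (-0.68 to 0.27).

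These differences were set against the change over genome activation, which uses no array of theirs. Of the 68 members that rose from the 1-cell to the 4-cell control 12 were lower and 0 higher with MGCD0103 than with T247, with a median of -0.39. Of all genes that rose, 10.3% were lower and 0.479% higher. Of the 129 that fell 4 were higher and 0 lower, with a median of 0.43, and of all genes that fell 5.56% were higher and 0.169% lower. Over all genes that rose the median was -0.32 and over all that fell 0.48. Across the 259 members the differences between the inhibitors correlated with the change over development at a Pearson r of -0.66 and a Spearman rho of -0.64, and across all 13537 genes r was -0.67. This is a description across genes, which share the arrays and are no independent replicates, and the members' r lay close to that of all genes.

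**Figure D5:**
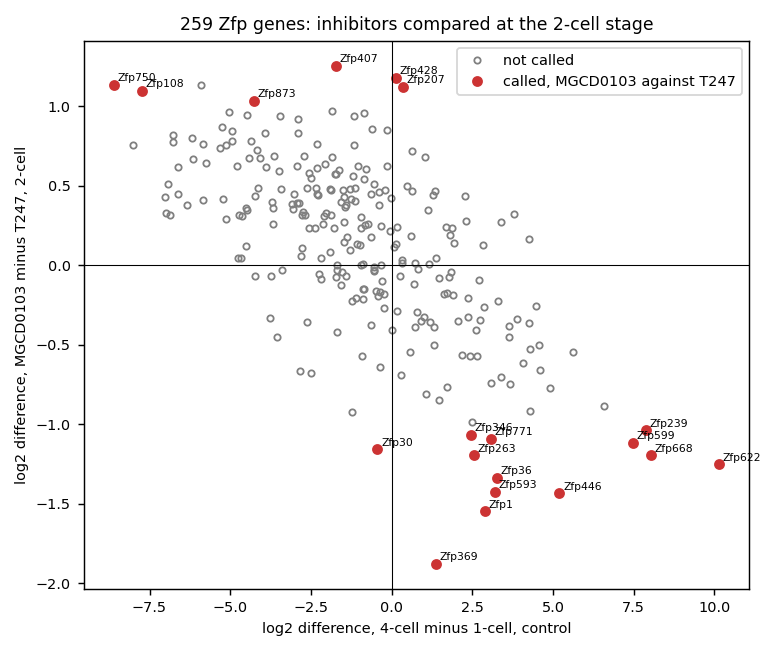
Each point is a Zfp gene, with the log2 difference between 4-cell and 1-cell control embryos on the horizontal axis and the log2 difference between MGCD0103 and T247 2-cell embryos on the vertical axis; the 19 genes called for the latter are red and named. Of the genes called lower with MGCD0103, 12 rose over development, and the Pearson r over the 259 genes is -0.66.

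Against the 2-cell control the members are described without a test. With T247, 23 members were at least 1 higher and 39 at least 1 lower without overlap of the arrays, against 6.58% and 16.5% of all genes, and the other scalings gave 29 and 28 or 35 and 31. With MGCD0103, 18 were higher and 38 lower, against 7.93% and 15.6%, and normexp gave 6 and 26. Without replicate 1 of the control the numbers were 29 and 47 with T247 and 49 and 47 with MGCD0103, and 51 of the first calls remained in each. Fewer control arrays make it easier for any gene to show no overlap. The shares of all genes are not given for this setting, so these counts say nothing about the members in particular.

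Zfp622 was lower with both, at 13.57, 13.34 and 13.26 with T247 and 11.87, 12.17 and 12.37 with MGCD0103 against 15.35, 16.01 and 16.07 in the control. Zfp599 read 8.42, 8.12 and 7.75, then 6.78, 6.86 and 7.29, against 10.43, 10.23 and 10.40. Zfp30, whose 2-cell control read 8.26, 9.32 and 9.34, stood at 6.75, 6.88 and 6.85 with T247 and 5.87, 5.29 and 5.84 with MGCD0103. Without control replicate 1 the differences with T247 and MGCD0103 went from -2.42 and -3.67 to -2.65 and -3.90 for Zfp622, from -2.26 and -3.37 to -2.22 and -3.33 for Zfp599, and from -2.15 and -3.31 to -2.51 and -3.66 for Zfp30. In all 3 genes the 3 groups kept the order control, T247, MGCD0103 without overlap. Zfp865 and Zfp710 were lowest against the control with T247, by differences of -2.56 and -2.55, but their control replicate 1 read 8.34 and 8.34 and its fellows 11.26, 10.91, 11.68 and 11.40. Without it they differed by -3.48 and -3.61. Zfp777 differed by -2.26 with T247, or -2.88 without that replicate. With MGCD0103 Zfp239 differed by -3.02, or -3.74 without it, and Zfp1 by -3.01, or -3.43.

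Zfp345 was higher by 2.12 with T247 and 1.70 with MGCD0103, or by 2.17 and 1.75 without control replicate 1, whereas its second probe gave 0.25 and -0.80 over all arrays. Zfp933 read 7.02, 6.64 and 6.96 in the control, 8.77, 8.73 and 8.77 with T247 and 8.53, 8.43 and 8.69 with MGCD0103, differences of 1.89 and 1.68, or 1.96 and 1.75 without that replicate. Zfp189 differed by 2.32 with T247, or 3.14 without control replicate 1, which read 7.07 where the others read 4.54 and 4.67. Zfp185 differed by 1.87 and 1.53, or 2.30 and 1.97 without it. Zfp764 differed by 1.60 with T247, or 1.42 without it, and with MGCD0103 Zfp791 differed by 1.83, or 2.17, and Zfp146 by 1.47, or 1.62. Among the transcription and chromatin genes Zfp143 differed by -1.76 and -2.74 with T247 and MGCD0103, Zfp296 by -1.49 and -1.88 and Zfp335 by -1.56 and -1.42. Without replicate 1 these were -2.26 and -3.25, -1.45 and -1.84, and -1.89 and -1.75. The imprint protector Zfp57 read 10.25, 10.14 and 10.25 with T247 and 11.04, 10.98 and 10.88 with MGCD0103. Both lay below the control, by differences of -1.02 and -0.26, or -0.99 and -0.24 without replicate 1.

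Zfp408 was higher on the treated arrays at every stage, and other members were too. Its signal was between 16.66 and 17.13 on the 24 control arrays and between 17.64 and 17.94 on the 15 treated arrays, whatever the stage. The differences, 0.81 and 0.96 at the 1-cell stage and 0.96 with T247 at the 4-cell stage, stayed under the fold threshold. With T247 at the 1-cell and 4-cell stages, Zfp658 differed by 1.29 and 1.15, Zfp595 by 0.92 and 1.01 and Zfp628 by 0.50 and 0.53. The probe most like that of Zfp408 is the one of Zfp658, with 42 matching bases. All treated arrays lie on slides of their own, and how far the slide takes part was not tested.

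Within each inhibitor the step from the 1-cell to the 2-cell stage lay on a single slide. In T247 embryos 46 members rose and 115 fell, against 17.1% and 43.7% of all genes, and in MGCD0103 embryos 42 rose and 105 fell, against 14.6% and 36%. With scaling to the 75th percentile the splits were 60 and 77 and 51 and 72, and with quantile normalization 58 and 80 and 53 and 77. Zfp54, from the cluster on chromosome 17, read 4.04, 4.15 and 4.22 in T247 1-cell embryos and had a mean of 10.74 in T247 2-cell embryos. With MGCD0103 it went from 4.34, 4.37 and 4.04 to 9.92, 9.91 and 10.14, rises of 6.60 and 5.74. Zfp622 rose by 6.44 and 5.63, Zfp599 was at least 18.5-fold higher with T247, and Zfp948 was at least 12.9-fold higher with MGCD0103. Among those that fell, Zfp57 fell by 5.11 and 4.36, Zfp952 fell by 4.92 and 4.72 and Zfp169 fell by 4.83 and 4.63.

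From the 2-cell to the 4-cell stage with T247, 59 members rose and 91 fell, against 29.8% and 37% of all genes. Zfp251 rose by 5.11, with 2 of its 2-cell arrays below detection. Zfp710 rose by 4.83 and Zfp259 (Zpr1) by 4.10. Zfp709 was at least 48.1-fold lower, Zfp735 fell by 5.21 and Zfp750 fell by 4.91.

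At the 4-cell stage 20 members were higher with T247 than in the control and 11 lower, against 11.1% and 5.81% of all genes. The other scalings gave 16 and 18 or 15 and 18, and normexp gave 8 and 3. The medians of members and of all genes lay close to each other there. They were -0.12 and -0.17 with scaling to the 75th percentile, -0.07 and -0.07 with quantile normalization, and -0.01 and -0.02 with normexp. The T247 effect itself was higher at the 4-cell than at the 1-cell stage for 12 members and lower for 13, against 7.48% and 5.71% of all genes, and normexp gave 12 members in all. Zfp932, the repressor of retroviral elements, had the largest fall, at 9.34, 9.04 and 9.76 with T247 against 11.43, 11.64 and 11.63 in the control, a difference of -2.19 (SE 0.20, adjusted p = 9.95e-10). It was the 1 member called among the 7 imprint and transposon repressors. Zfp599 read 8.80, 8.24 and 8.92 against 10.17, 10.58 and 10.33, and Zfp160 read 6.42, 6.07 and 7.02 against 7.81, 7.82 and 8.44. The groups of these 3 genes did not overlap.

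Zfp560 was at least 3.05-fold higher, at 5.32, 6.33 and 6.01 against 3.38, 3.84 and 3.04 in the control, where it was not well above background. Zfp53 read 10.31, 9.89 and 9.71 against 7.78, 7.91 and 8.48, a difference of 1.91 (SE 0.21), and Zfp369 read 6.61, 6.09 and 5.76 against 3.97, 4.38 and 4.45, where 1 control array was detected. Zfp933 still differed by 1.26, Zfp345 by 1.25, Zfp715 by 1.16 and Zfp658 by 1.15, and Zfp791 by 0.67 without a call. Zfp622 read 17.28, 17.35 and 17.29 against 16.89, 16.79 and 16.92. Of the 22 corepressor genes Atf7ip was called higher, and Cbx1 and Smarcad1 differed by -1.01 and -1.16.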

How the data were processed

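RNA of 39 samples was measured on 1-colour Agilent arrays of 59305 spots, holding 55681 probes. The deposited intensity (gProcessedSignal) is background-subtracted and carries detection flags. The submitters' notes name Feature Extraction 9.5.1.1, and the file headers a module of version 10.7.1.1. The authors' processed log2 values, also deposited, served as an alternative. The deposited file of MGCD0103 1-cell replicate 1 holds values rounded to 3 significant digits.

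Intensities were set on a log2 scale and normalized by a re-implementation of smooth quantile normalization by condition, with a window of 0.05. Genes were named by the array and represented by their brightest passing probe. Conditions were compared with limma 3.58.1 in R 4.3.3 in a fit over all 39 arrays, without the spots flagged as outliers, and p-values were adjusted by Benjamini-Hochberg over 13537 genes. A gene called had a log2 difference of at least 1 and an adjusted p below 0.05. Named members were the top 3 in each direction per tested comparison among those without overlap, the top 5 in each direction against the 2-cell control, those at the edges of the rule and those on the role lists; others named were chosen after their values were seen. The members and lists were chosen with earlier results of these data known. A group not well above background on any array has only a bound: "at least" folds set the bright group's mean against the higher of the lowest detected signal of each array and the probe's own. The scripts were tested on simulated data. Groups formed from protein sequence were not analysed here. With 3 arrays per condition, the number of arrays limits the precision.
Replicate numbers were checked for pairing: the deviations of same-numbered arrays correlated between 0 and 0.21 in the comparisons of control stages, where a number is also a slide. All 3 were above 0.1 from the 4-cell to the 8-cell stage only, where a block left the 22 calls at 22. Alternatives were another scaling, background correction, detection filter, probe summary, array weights, slide or replicate blocks, the authors' values and each array left out.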

Additional observations from a re-analysis of the deposited data

Results flagged for a closer look

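The effect of T247 at the 4-cell stage was compared with that at the 1-cell stage by an interaction term in limma, with 3 arrays per condition, and 25 of 259 members passed the threshold, 12 higher and 13 lower at the 4-cell stage, against 7.48% and 5.71% of all genes; normexp gave 12. In 21 of the 25 each of the 4 groups had an array well above background. The 3 named members among these had been picked for a large rise or fall in 1 of the 2 comparisons. That choice favours a difference between the stages, and the values below describe these members only. All 3 were lower at the 4-cell stage, whereas 12 of the 25 went the other way. For Zfp932 the effect was 0.00 at the 1-cell and -2.19 at the 4-cell stage, a difference of -2.19 (SE 0.28, adjusted p = 1.72e-06). For Zfp160 it was -0.14 and -1.52, a difference of -1.39 (SE 0.38, adjusted p = 0.00633). For Zfp715 it was 2.45 and 1.16, a difference of -1.28 (SE 0.39, adjusted p = 0.0146). Zfp560, with no 4-cell control array above background, and Zfp30, with no T247 1-cell array above background, also passed, and no size is given for them. The T247 arrays of these stages lie on slides of their own, and the part of the slide cannot be told apart from that of the inhibitor.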

How the results depend on the processing

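The largest changes came with the background correction and with the scaling. The counts below are of members only, and whether all genes changed alike is not shown by them. Correction by normexp lowered the number of members called to 11 (T247) and 7 (MGCD0103) in 1-cell embryos, 11 for T247 at the 4-cell stage, 9 for MGCD0103 against T247 at the 2-cell stage, 29 from MII to 1-cell, 7 from 4-cell to 8-cell, 34 to the morula, 29 to the blastocyst and 12 for the change of the T247 effect, and to 32 with each inhibitor against the 2-cell control. The authors' processed values, which hold 200 of the members, gave 12 for MGCD0103 against T247 at the 2-cell stage and 8, 40 and 35 over the last 3 steps, and the cause was not tested beyond the smaller number of genes. Array weights gave 2 for MGCD0103 against T247 at the 1-cell stage. With scaling to the 75th percentile the highest stage was GV for 30 members, MII for 81, 1-cell for 26, 4-cell for 31, 8-cell for 27 and blastocyst for 23; with quantile normalization the numbers from GV to blastocyst were 30, 75, 38, 33, 25, 20, 13 and 25.

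Leaving out 1 array gave 107 to 113 calls from GV to MII, 49 to 56 to the 1-cell stage, 196 to 198 from 1-cell to 4-cell, 18 to 27, 65 to 75 and 51 to 62 over the next 3 steps, 20 to 29 (T247) and 13 to 18 (MGCD0103) in 1-cell embryos, and 23 to 44 for T247 at the 4-cell stage. It gave 0 to 1 for MGCD0103 against T247 at the 1-cell stage, 12 to 21 at the 2-cell stage, 158 to 163 and 145 to 150 from 1-cell to 2-cell with T247 and MGCD0103, 146 to 149 from 2-cell to 4-cell with T247, and 21 to 36 for the change of the T247 effect. Against the 2-cell control the ranges were 60 to 76 for T247 and 52 to 96 for MGCD0103, the latter 96 without control replicate 1. Leaving that array out of the shared fit, chosen after seeing the data, gave 23 and 17 calls at the 1-cell stage.

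With the replicate number as a block, MGCD0103 at the 1-cell stage had 16 calls, MGCD0103 against T247 at the 2-cell stage 18 the step from MII to 1-cell 54 and the change of the T247 effect 26, and no other count of called members changed. With the slide as a random block the inhibitors had 21 and 15 calls in 1-cell embryos, T247 had 32 in 4-cell embryos, and MGCD0103 against T247 had 0 and 17. Averaging the passing probes turned Zfp58 from GV to MII to -0.43 and Zfp865 from morula to blastocyst to 0.28. Of 1571 values of named genes under the alternatives, 1521 kept their direction and side of the threshold and 48 lost the call. Signals near background limit the dim members.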
